A study of Mus musculus with 8 samples.

Results

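The apical progenitor identity genes described here are 10 genes that mark the neuroepithelial cells and radial glia lining the ventricles of the embryonic brain, namely *Nes*, *Vim*, *Fabp7*, *Slc1a3*, *Prom1*, *Msi1*, *Sox2*, *Pax6*, *Nr2e1* and *Sox9*. They were chosen by name, and every probe set annotated to them was taken, which gave 28 of 45037 probe sets and 10 of 18193 genes. A probe set is a group of short probes on an Affymetrix array that reads 1 transcript or a few. Brain RNA at E12.5 came from 4 mutant and 4 control arrays of mice on a C57/BL6 background. The mutants carried a *Nestin Cre* transgene and 2 copies of an inverted gene trap in an intron of *Rest* (Cre+, Rest GTi/GTi), which Cre turns back so that transcription ends before the coding exons of this repressor of neuronal genes. The controls carried the same 2 inverted traps without Cre (Rest GTi/GTi), so both genotypes share the GTi allele, and the presence of Cre and the loss of REST cannot be told apart. Cre acts in nestin-positive cells and their progeny, and other cells of the dissected tissue keep the inverted trap. The labels call the arrays biological replicates but not how many embryos each holds, so p-values measure the spread between these arrays.

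Apical progenitors are the founder cells of the brain. They span the wall of the neural tube from the ventricle to the outer surface, divide at the ventricle, and give rise to neurons directly or through basal progenitors. The cytoskeletal proteins nestin and vimentin build their long fibre, brain lipid binding protein and the glutamate transporter GLAST mark them as radial glia, prominin 1 lies on protrusions of their apical membrane, and the transcription factors of the SOX and PAX families together with Musashi 1 hold them in the dividing state. As nestin is on in these cells, they are also the cells in which Cre removes REST in this cross.

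No apical progenitor gene was called as changed in Cre+, Rest GTi/GTi brain. At an adjusted p under 0.05 from limma, a linear model that shares information on the spread across all probe sets, 0 of the 10 genes were called in either direction, against 0.225% of all 18193 genes (41 genes, of which 39, or 0.214%, were higher and 2, or 0.011%, lower), and 0 of the 28 probe sets, against 0.14% of all probe sets. At an unadjusted p under 0.05, 0 of the 10 genes passed, against 6.97% of all genes, and with the methods' t-test in place of limma the adjusted count was also 0. The fold changes of the 10 genes ran from 0.879 for *Sox9* to 1.02 for *Slc1a3*. The 95% intervals of all 10 lay between 0.741-fold, the lower bound of *Nr2e1*, and 1.23-fold, the upper bound of *Nes*. Values are intensities after the arrays were scaled to a common distribution, a fold change is the ratio after 16 was added to each intensity, and the brightest probe set stood for each gene. In whole brain RNA, fewer apical progenitors and less of a transcript in each progenitor cannot be told apart, so a value here is the level in the tissue.

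The arrays differed in ways that touch these genes. On the brightest probe set of *Rest* itself, intensities ran from 84.4 to 216.7 in the mutants and from 170.1 to 271.8 in the controls (log2 fold change -0.51, exact permutation p = 0.143, two-sided, n = 4 each). Among the mutants, replicate 2 read more *Rest* than 3 of the 4 controls. The position of these probes relative to the trap was not available, which limits this check of the genotypes. The mesenchymal collagen gene *Col3a1* read 4864.4 and 4571.2 on mutant replicates 1 and 2 and at most 231.7 on mutant replicates 3 and 4, against 114.7 to 555.0 on the controls. The posterior patterning gene *Hoxb3* read 1.8, 178.7, 746.0 and 434.5 on mutant replicates 1 to 4, against 172.6 on control replicate 1 and 6.9 to 12.8 on the other 3 controls. *Xist* and *Eif2s3y* gave 2 of the 4 controls and none of the mutants the signal of females. The mutant arrays thus differed among themselves in mesenchymal and hindbrain signal, and the 2 sexes were unevenly spread over the genotypes.

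Promoter sequences of RefSeq on GRCm38.p6, 250 bases before to 50 after the start, were found for 8 of the 10 genes, with 10 windows in all because *Prom1* and *Pax6* have 2 each. *Msi1* and *Sox9* had no window. REST binds a long DNA element called RE1, and 0 of the 10 windows held its core, TTCAGCACC followed by any 2 bases and GGACAG, on either strand, against 0.0122% of all 32851 windows. The left part TTCAGCACC alone and the right part GGACAGCGC, both of which overlap the core, were likewise in 0 of the 10, against 0.371% and 0.405% of all windows. These letters are thus rare in such windows in general, and their absence says nothing about binding elsewhere. Of common promoter motifs, the CCAAT box (CCAAT) was in 6 of the 10 windows against 37.4% of all, the GC box (GGGCGG) in 4 against 35.7%, and the TATA box (TATAAA) in 2, those of *Vim* and *Slc1a3*, against 13.6%, each on either strand. The windows of *Nes*, the gene behind the Cre driver, and of *Sox2*, a widely used marker of these cells, are shown as examples without the RE1 letters. *Nes* lies at chr3:87970843-87971142 and *Sox2* at chr3:34649745-34650044, both on the plus strand. Capitals mark CCAAT and GC boxes, of which *Nes* has 0 and 2 and *Sox2* has 1 and 2.
Nes: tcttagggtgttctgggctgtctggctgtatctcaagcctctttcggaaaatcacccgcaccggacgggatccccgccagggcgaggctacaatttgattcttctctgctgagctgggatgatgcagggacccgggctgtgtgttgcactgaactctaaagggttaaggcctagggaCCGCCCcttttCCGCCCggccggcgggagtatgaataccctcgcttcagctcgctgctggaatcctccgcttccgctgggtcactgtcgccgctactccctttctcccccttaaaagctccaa
Sox2: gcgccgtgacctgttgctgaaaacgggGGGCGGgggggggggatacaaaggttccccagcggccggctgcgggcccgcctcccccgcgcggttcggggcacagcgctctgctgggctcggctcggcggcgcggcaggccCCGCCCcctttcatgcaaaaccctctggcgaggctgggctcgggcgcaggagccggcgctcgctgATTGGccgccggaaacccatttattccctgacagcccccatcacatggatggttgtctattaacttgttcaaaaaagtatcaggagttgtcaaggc

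**Figure D1:**
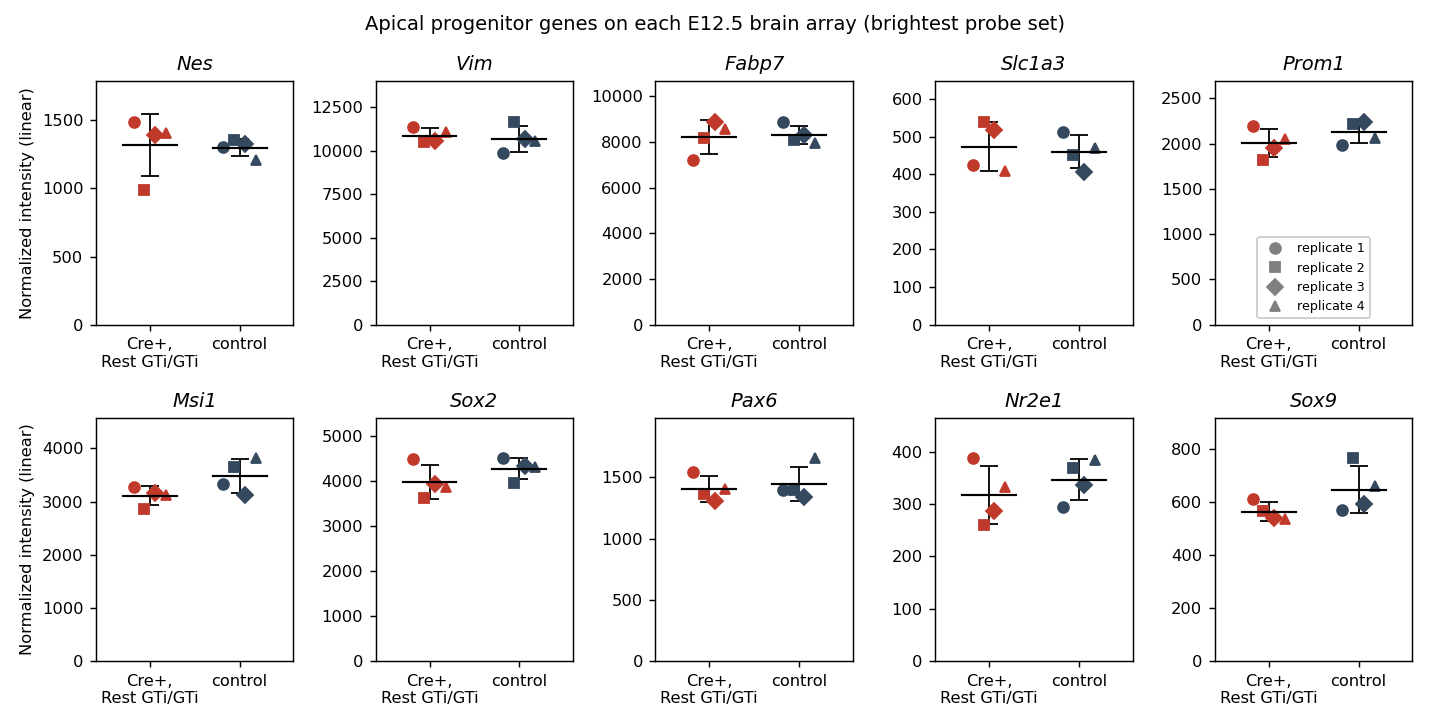
Normalized intensity (linear axis from 0, own range in each panel) of the 10 apical progenitor genes on each E12.5 brain array, Cre+, Rest GTi/GTi left of control, with symbols for replicates 1 to 4, lines for the mean and bars for the SD. The genotypes overlap for all 10 genes, and Cre+, Rest GTi/GTi replicate 2 is the lowest of the 8 arrays for 5 of them.

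Neither intermediate filament gene was called. *Nes*, which encodes nestin, read 1490.0, 987.5, 1389.3 and 1407.4 on mutant replicates 1 to 4, against 1304.2, 1358.7, 1326.9 and 1208.0 on control replicates 1 to 4. Thus 3 of the mutant arrays lay above every control and replicate 2 below every control. The log2 fold change was 0.0048 (standard error 0.13, 95% interval -0.29 to 0.30, adjusted p = 0.998 from limma), and 0.14 without replicate 2, still uncalled (adjusted p = 0.912). Replicate 2 also had the highest mean of the mesenchyme markers, 3.54 on the log2 scale above the controls, and the part of such tissue in the low *Nes* value was not tested. The other probe sets of *Nes* gave -0.026 and -0.0077, and neither had its low value on replicate 2, where they read 670.8 and 126.7 against 525.7 to 865.7 and 95.2 to 172.2 on the controls. *Vim*, which encodes vimentin, read 11381.2, 10512.6, 10559.2 and 11061.0 on the mutant arrays, against 9881.6, 11682.9, 10664.6 and 10559.2 on the controls. All 4 mutant values fell inside the range of the controls, for a log2 fold change of 0.026 (standard error 0.073). Vimentin is also made by mesenchyme, endothelium and macrophages, and replicate 2, with the most mesenchyme signal, was the lowest of the 4 mutants on this probe set. On the further probe sets of *Vim*, which gave -0.0054 and 0.032, replicate 2 was the highest of all 8 arrays, at 6989.2 and 6473.6.

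The radial glia genes of lipid and glutamate handling were not called either. *Fabp7*, which encodes brain lipid binding protein, read 7200.2, 8170.0, 8886.1 and 8583.9 on the mutant arrays, against 8868.3, 8066.6, 8299.4 and 7961.5 on the controls. Replicate 1 was the lowest and replicate 3 the highest of all 8 arrays, so the mutants spread around the controls on both sides (log2 fold change -0.019, standard error 0.084). *Slc1a3*, which encodes GLAST, a transporter that clears glutamate, read 425.4, 539.9, 518.3 and 408.8 on the mutant arrays, against 512.3, 452.2, 406.4 and 468.6 on the controls, for a log2 fold change of 0.034 (standard error 0.11). It is read by 6 probe sets, and these were not alike. The brightest, with a mean of 466.5 against 214.1 for the next, is marked by its name as less specific. Without less specific probe sets the gene gave 0.026 (adjusted p = 0.992 from limma). Of the 6, those averaging above 100 gave 0.034, 0.026, -0.026 and 0.18. Of the dim pair, the brighter gave -0.16 and the dimmer 0.36. On the dimmer the intensity was 30.2, 28.7, 28.4 and 22.1 in the mutants, against 15.3, 14.1, 22.3 and 19.6 in the controls. Only mutant replicate 4 overlapped control replicate 3, and the exact permutation p was 0.0571 (n = 4 each, limma adjusted p = 0.51). Such low signals sit close to the added constant of 16. Of the brighter probe sets of the gene, those at 0.18, 0.034 and 0.026 went the same way at a smaller size. The others, at -0.026 and -0.16, went the other way.

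*Prom1* encodes the membrane protein prominin 1, or CD133, and *Msi1* the RNA-binding protein Musashi 1, which keeps mRNAs of differentiation from being translated. *Prom1* read 2190.3, 1824.0, 1950.4 and 2048.4 in Cre+, Rest GTi/GTi brain, against 1987.1, 2221.5, 2242.9 and 2061.7 in controls, and replicates 2 and 3 lay below every control (log2 fold change -0.088, standard error 0.081, 95% interval -0.27 to 0.10). *Msi1* read 3275.7, 2855.9, 3161.5 and 3126.8, against 3329.9, 3655.9, 3120.0 and 3810.3. Only replicate 2 lay below every control, but all 4 mutant arrays lay below 3 of the 4 controls. The log2 fold change of *Msi1* was -0.16 (standard error 0.086, 95% interval -0.36 to 0.035, adjusted p = 0.783 from limma, the lowest among the 10 genes). Its other probe sets gave 0.28 and -0.26. The value of 0.28 came with a reading of 166.5 on control replicate 4 against 577.7 to 735.5 on the other controls and 497.9 to 669.2 on the mutants, so control replicate 4 lay far below the other 7 arrays.

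The transcription factor genes all had log2 fold changes below 0 and none was called. *Sox2*, which maintains neural stem cells, read 4498.0, 3629.3, 3927.4 and 3862.5 in Cre+, Rest GTi/GTi brain, against 4502.9, 3950.7, 4333.9 and 4321.0 in controls. Replicates 2 to 4 lay below every control and replicate 1 beside the highest, for a log2 fold change of -0.11 (standard error 0.085, 95% interval -0.30 to 0.088). *Sox2* is read by 1 probe set, so no further one could be set beside it. *Sox9*, which promotes the stem cell state and later the glial fate, read 611.5, 566.4, 538.7 and 537.3, against 569.8, 763.8, 591.4 and 660.3. Here too replicates 2 to 4 lay below every control (log2 fold change -0.19, standard error 0.10, 95% interval -0.42 to 0.048). The next brightest probe set of *Sox9* read 460.0, 465.7, 361.6 and 486.2 in mutants, against 498.0, 547.1, 525.6 and 492.4 in controls. On it every mutant array lay below every control, with a log2 fold change of -0.22, an exact permutation p = 0.0286 (n = 4 each, the smallest that this design allows) and an adjusted p = 0.743 from limma. The dimmest probe set of *Sox9* gave -0.23 at a mean of 13.2, below the added constant. *Sox9* is also made in cartilage and in cells of the neural crest. On its brightest probe set the arrays with the most mesenchyme signal, replicates 1 and 2, were the highest of the 4 mutants. On the next brightest, replicate 4, with the least mesenchyme signal, was the highest of the 4 mutants. The part of such tissue in the *Sox9* values was not tested.

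*Pax6* and *Nr2e1* are region-bound. *Pax6*, a paired-box factor of dorsal forebrain and hindbrain progenitors, read 1545.1, 1363.3, 1302.2 and 1402.3 in mutants, against 1396.7, 1394.0, 1338.6 and 1652.4 in controls on its brightest probe set (log2 fold change -0.040, standard error 0.090). Only replicate 3 lay below every control. Of its 5 probe sets, 4 lay between -0.060 and -0.0089, and a dim one stood apart. On it the intensity was 21.2, 27.8, 27.5 and 23.5 in mutants, against 37.6, 33.9, 38.5 and 33.6 in controls, with no overlap. Its log2 fold change was -0.34 (95% interval -0.52 to -0.16, exact permutation p = 0.0286, n = 4 each, limma adjusted p = 0.341, the lowest of the 28 probe sets), and it kept this sign in every alternative that gave it a value, from -0.51 with a constant of 1 to -0.20 with a constant of 50. It was dim (mean of 30.5 over the 8 arrays) and was removed by the filter on dim probe sets, and which part of the *Pax6* transcripts it reads is not known here. *Nr2e1*, or Tlx, an orphan nuclear receptor of forebrain stem cells, read 387.0, 260.9, 286.7 and 332.9 in mutants, against 294.9, 369.1, 336.8 and 383.4 in controls. Replicates 2 and 3 lay below every control and replicate 1 above every control (log2 fold change -0.13, standard error 0.13), and a further probe set gave -0.11. Relative to the controls, the mean of 7 other forebrain genes was 0.20, -0.12, -0.22 and -0.21 on mutant replicates 1 to 4 and that of 9 *Hox* genes of the hindbrain -0.55, 0.77, 2.42 and 1.496. Among the mutants, replicate 1 had the most *Nr2e1*, the most forebrain and the least hindbrain signal, but the other 3 did not keep this order, as replicate 2 had the least *Nr2e1* with more forebrain and less hindbrain signal than replicates 3 and 4. The part of the regional make-up in the *Nr2e1* values was not tested.

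**Figure D2:**
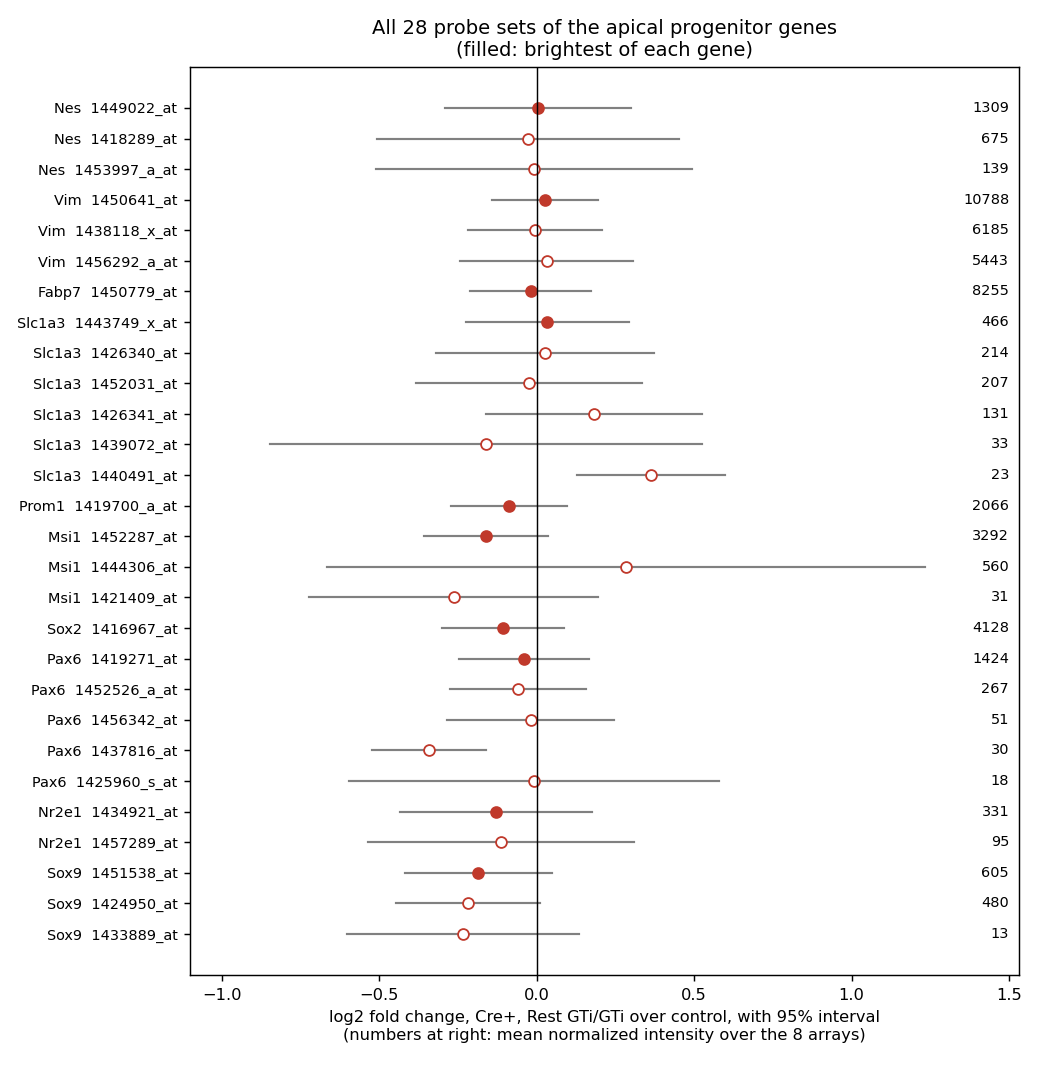
Log2 fold change (Cre+, Rest GTi/GTi over control) of all 28 probe sets of the apical progenitor genes with 95% intervals from limma, filled for the brightest probe set of each gene and with the mean normalized intensity over 8 arrays at the right. The intervals of 2 dim probe sets, those of *Slc1a3* (0.36) and *Pax6* (-0.34), exclude 0 before adjustment, and the brightest probe sets all include it.

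Over all 28 probe sets, 2 passed an unadjusted p under 0.05 (7.14%, against 6.87% of all probe sets), and 2, those of *Pax6* and *Sox9* above, did not overlap between genotypes (7.14%, against 4% of all probe sets). Among the brightest probe sets, 0 of 10 were free of overlap, against 4.64% of all genes. The first of these shares is near that of the whole array, and the second rests on 2 probe sets.

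More of the 10 genes lay below 0 than above it, though none was called. Of the 10 genes, 7 had a log2 fold change below 0, against 50.5% of all genes, with a median of -0.064 against -0.0014 over all genes. Of the 28 probe sets 20 lay below 0, against 53.7% of all probe sets. The number of genes below 0 was 7 with cyclic loess, 10 with a common median and 5 with no scaling between arrays. The median of the 8089 genes with a mean intensity of at least 200 itself moved with the scaling. Relative to it, the median of the 10 lay at -0.060 with quantile scaling and -0.074 with a common median. It lay at -0.068 with cyclic loess and -0.073 with no scaling. The mean of the 10 genes, relative to the controls, was 0.021, -0.16, -0.067 and -0.063 on mutant replicates 1 to 4, against -0.036, 0.046, -0.044 and 0.034 on control replicates 1 to 4. Replicates 2 to 4 thus lay below every control and replicate 1 within their range. Replicate 2 had 9 of the 10 genes below the control mean and replicate 1 had 4. The median of the 10 was -0.037 to -0.11 when any 1 array was left out. Among all alternatives it ran from -0.14 with a common median to -0.024 with no scaling. Within a genotype the median SD of the 10 genes was 0.12 in mutants and 0.11 in controls on the log2 scale. *Nes* and *Nr2e1* spread most over the 8 arrays (ranges of 0.59 and 0.54) and *Vim* least (0.24).

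Other genes of the same cells gave no call either. Of 18 further apical progenitor genes, 0 were called, 7 lay above 0 and 11 below, with a median of -0.065. An unadjusted p under 0.05 was reached by 1 of the 18, against 6.97% of all genes, so this count does not stand out. That 1 was *Ttyh1*, which encodes a membrane channel protein of neural stem cells, at 744.1, 778.8, 905.6 and 863.8 in mutants, against 991.6, 974.2, 905.2 and 1065.3 in controls (log2 fold change -0.26, standard error 0.087, adjusted p = 0.629 from limma). *Ednrb*, the endothelin receptor of radial glia, gave -0.24 and *Gpm6b*, a membrane glycoprotein, -0.16, the second with every mutant below every control. *Dbi*, an acyl-CoA binding protein of progenitors, also did not overlap (3897.4 to 4025.9 in mutants, against 4034.9 to 4338.7 in controls, log2 fold change -0.077), so 2 of the 18 lay wholly below, against 2.15% of all genes, and 0 wholly above, against 2.48%. *Id4*, an inhibitor of differentiation factors, gave 0.0089. *Tnc*, an extracellular matrix protein of radial glia and of mesenchyme, is named after its values were seen, because it read 244.7 on replicate 2 and 28.6 to 75.0 on the other mutants, against 27.4 to 58.1 on controls. The Notch effector *Hes5* gave -0.041 and the receptor *Notch1* -0.074, while the effector *Hes1* gave 0.12 and *Gli3* 0.19. All of these were chosen after their values were seen.

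The apical surface, where progenitors are joined in a belt of adherens junctions, gave no call as well. Of 12 measured junction and polarity genes, 0 were called and 0 passed an unadjusted p under 0.05, 3 lay above 0 and 9 below, and the median was -0.018. The catenin gene *Ctnnb1*, whose protein ties cadherins to the cytoskeleton, read 9985.8 to 10409.7 in mutants, against 10023.2 to 10318.5 in controls. *Cdh2*, which encodes N-cadherin, gave 0.0028 (standard error 0.067). *Prkci*, the atypical protein kinase of the apical polarity complex, gave 0.11, *Prkcz* -0.087 and *Llgl1*, a basolateral partner, -0.10. *Crb2* of the list had no named probe set and is not analysed here, and *Mpp5* is the gene also called *Pals1*.

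**Figure D3:**
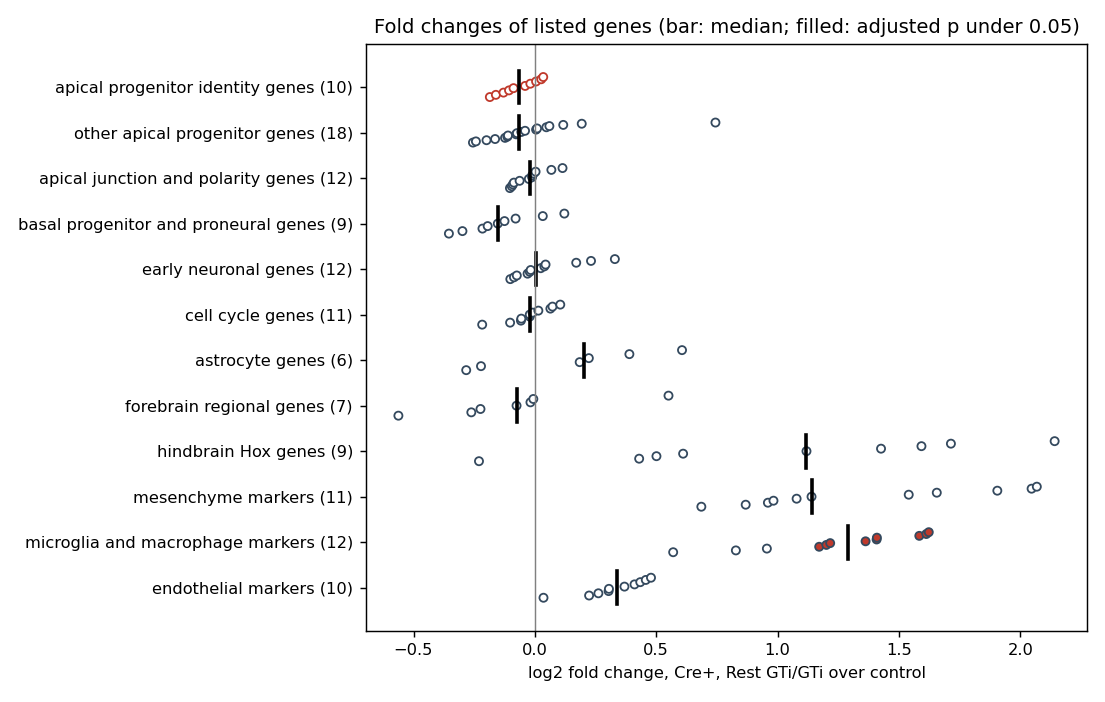
Log2 fold change (Cre+, Rest GTi/GTi over control) of the measured genes of 12 lists, 1 point a gene, with a bar for each list's median and filled points for genes at an adjusted p under 0.05. The 10 apical progenitor genes lie between -0.19 and 0.034, and the filled points are all among the microglia and macrophage markers.

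Beside these genes, other cell types of the tissue were measured on the same arrays. Microglia and macrophage markers rose, with 9 of 12 called and all 12 above 0 (median log2 fold change 1.29, mean of the list 1.18 to 1.35 on mutants, against -0.093 to 0.14 on controls). Of 9 basal progenitor and proneural genes 0 were called, 7 lay below 0, and the median was -0.15, with 4 of the 9 lower at an unadjusted p under 0.05 (against 6.97% of all genes in either direction) and 3 with every mutant below every control (against 2.15% of all genes). The 3 smallest p-values were those of *Neurod4*, a proneural factor, at -0.35, *Dll3* at -0.30 and *Hes6* at -0.22. *Dll3* is a Notch pathway ligand and *Hes6* promotes neuronal differentiation. The genes above 0 were *Eomes*, which encodes the basal progenitor marker TBR2, at 0.12 and *Neurod1* at 0.032. Both are named after their values were seen. Early neuronal and cell cycle genes had 0 calls and medians of 0.0033 and -0.021, and *Pcna*, the replication clamp, gave -0.021. The mean of the cell cycle genes was 0.17 on mutant replicate 1 and -0.20 on replicate 3, against -0.070 to 0.071 on controls. Mesenchyme markers had 11 of 11 genes above 0 and 0 called, with means of 2.41, 3.54, -0.12 and -0.40 on mutant replicates 1 to 4, against -0.35 to 0.50 on controls, and endothelial markers 10 of 10 above 0 and 0 called (mean 0.069 to 0.67, against -0.13 to 0.097). Astrocyte genes were largely dim at this age. *Gfap*, the filament of mature astrocytes, averaged 24.2 ± 5.74 in mutants and 15.6 ± 10.1 in controls (SD, n = 4). The gap junction gene *Gja1*, found in radial glia and also in mesenchyme, read 2869.2 and 2508.9 on mutant replicates 1 and 2 and 934.0 and 1125.2 on replicates 3 and 4, against 974.0 to 1218.6 on controls. With mutant replicates 3 and 4 alone, whose mesenchyme means lay within or below the range of the controls, 0 of the 10 apical progenitor genes and 0 of all 18193 genes were called, and the median of the 10 was -0.090. The part of these tissues in the apical progenitor values was not tested.

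**Figure D4:**
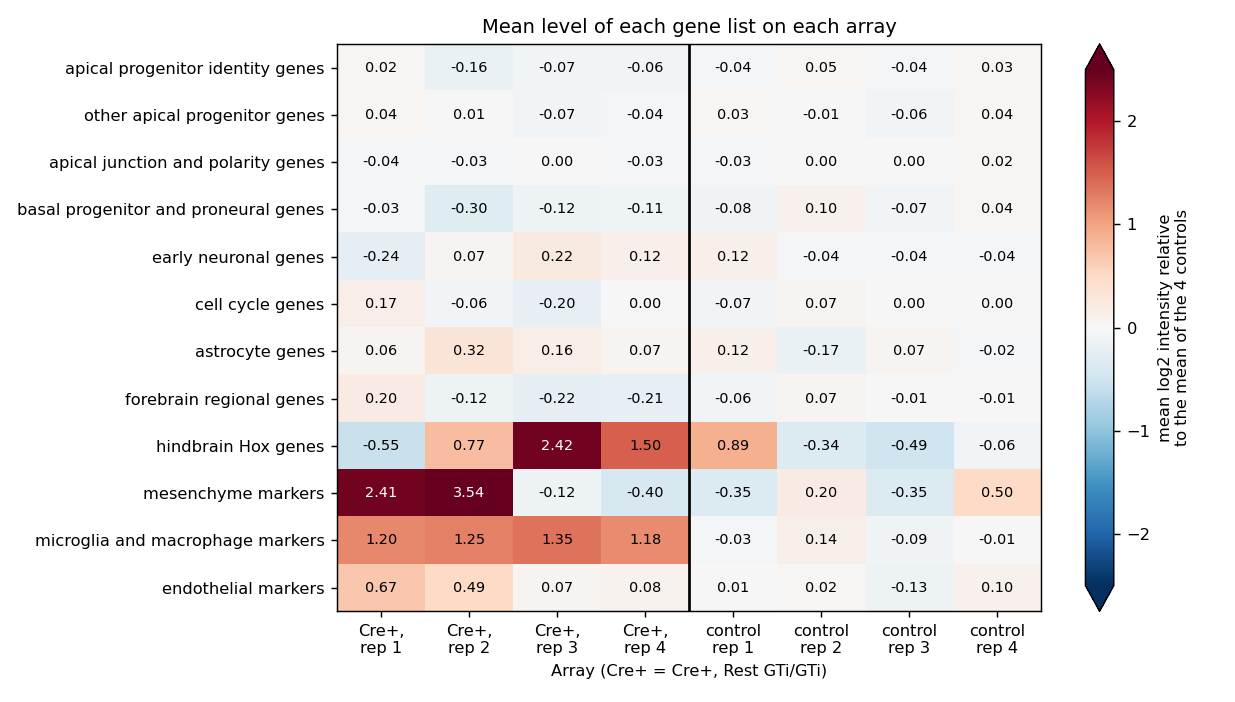
Mean log2 level of 12 gene lists by array, as a difference from the control average, Cre+, Rest GTi/GTi replicates 1 to 4 left of the controls, with the value in each cell. The apical progenitor genes stay between -0.16 and 0.05, while mesenchyme (2.41 and 3.54 on mutant replicates 1 and 2) and hindbrain *Hox* genes (2.42 and 1.496 on replicates 3 and 4) differ among the mutants.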

How the data were processed

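Total RNA of E12.5 mouse brain was hybridised to Affymetrix mouse expression arrays, 4 for each genotype. The methods name RMA normalization, as do the submitters' processing notes, with no version given. The deposited values are nevertheless intensity on a linear scale whose array medians differed (40.9 to 68.0), so they were quantile normalized, 16 was added and log2 taken. Of 45101 probe sets, 64 array controls were left out. GEO's platform annotation gave 34945 probe sets 1 gene, 932 several and 9160 none.

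Genotypes were compared over all 45037 probe sets with lmFit and eBayes (limma 3.58.1, R 4.3.3), with Benjamini-Hochberg adjustment over all of them and calls at an adjusted p under 0.05. The probe set with the highest mean stood for a gene. Single values were also tested with a two-sided exact permutation test over arrays. The procedure was tested on simulated data. Named genes were the 10 members with all their probe sets, up to 3 genes with the smallest p and up to 2 of the brightest from each other list, and 5 genes describing the arrays; exceptions are marked. Members and lists were chosen with earlier results of these data known. Some listed genes are not reported here. Promoter windows come from RefSeq on GRCm38.p6.

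Alternatives were the methods' t-test, other eBayes settings, a filter on probe sets with a mean under 32, other scalings, constants of 1 and 50, other choices of probe set, a replicate block, array weights, *Eif2s3y* as a covariate, male controls alone, mutant replicates 3 and 4 alone, and leaving out each array. The number of arrays limits the precision.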

Additional observations from a re-analysis of the deposited data

Results flagged for a closer look

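Of 56 sets of 4 arrays (28 probe sets in each genotype), 2 held an array far from the other 3, where chance alone gives about 1 in 20. *Nes* on its brightest probe set read 987.5 on Cre+, Rest GTi/GTi replicate 2, against 1389.3 to 1490 on the other mutants. *Msi1* on its second probe set by brightness read 166.5 on control replicate 4, against 577.7 to 735.5 on the other controls.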

How the results depend on the processing

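Under 24 alternatives, 0 of the 10 apical progenitor genes, 0 of the 18 further ones and 0 of the 12 junction genes were called, and 0 of the 28 probe sets in the 23 that apply. Of 239 single-gene log2 fold changes (-0.25 to 0.14), 218 kept their sign and 21 turned. With a common median *Nes* gave -0.072, *Vim* -0.034 and *Slc1a3* -0.018, and the median of the 10 moved to -0.14. Without scaling *Fabp7* gave 0.031 and *Pax6* 0.0011. *Nes* gave -0.0097 with the mean of its probe sets and -0.0035 with array weights. *Slc1a3* gave -0.067 with *Eif2s3y* as a covariate and -0.059 with male controls alone, and *Fabp7* gave 0.075 with mutant replicates 3 and 4 alone. Leaving out 1 array gave -0.059 to 0.14 for *Nes*, -0.011 to 0.069 for *Vim*, -0.058 to 0.043 for *Fabp7*, -0.030 to 0.099 for *Slc1a3* and -0.087 to 0.025 for *Pax6*. The cause of these turns was not tested, and all lie within the intervals of the report. The 41 genes called over the whole array became 14 with the methods' t-test of equal and 0 of unequal variances, 2 without scaling, 26 with a constant of 1, 14 with *Eif2s3y* as a covariate, 7 with male controls alone, 0 with mutant replicates 3 and 4 alone and 21 to 31 without 1 array. Settings with fewer arrays make a call harder to reach. With the replicate block 0 genes were called. Residuals of arrays with the same number correlated at -0.20 to 0.041, and 0 of 8 arrays correlated best with their own number. No pairing by number was thus seen. The paper's dataset title calls the genotypes littermates, but which arrays share a litter was not stated, so pairing by litter is unknown. *Prom1* had no value without less specific probe sets.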
